A study of Mus musculus with 9 samples.

Results

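In the mouse mammary gland, 446 of 124860 chromatin regions peaked in oestrogen receptor negative (ER-) luminal cells of mid pregnancy. Their accessibility there was at least 2-fold that in any other cell type and stage measured. These regions make up 0.357% of all regions. The members were chosen by their deposited accessibility values: log2(value + 1) in the ER- luminal pregnancy library had to lie at least 1 above that in each of the other 8 libraries, and the value itself had to reach 20. A log2 difference of 1 is a 2-fold difference. By any margin, the ER- luminal pregnancy library was highest in 8124 of the 50531 regions where its value was at least 20. All 9 libraries entered this choice, so the height of the peak is a description and was not tested.

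Luminal cells line the ducts and alveoli of the gland, and basal cells form the contractile layer around them. ER- luminal cells include the alveolar progenitors, which expand in pregnancy under progesterone and prolactin and mature into milk-secreting cells. ER+ luminal cells sense the steroid hormones and signal to their neighbours. ATAC-seq reads such a change at the level of chromatin, since the Tn5 transposase inserts adapters where DNA is open, as at active promoters and enhancers.

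Basal cells, ER- luminal cells and ER+ luminal cells were sorted from the mammary gland at 3 stages (puberty, adulthood, mid pregnancy), with 1 library for each of the 9 combinations. All mice, in every group, carried the genotype ERrtTA/TetOCre/rosaYFP; ages, numbers of mice per library and any agent given to induce the alleles are not given in the sources used here. With 1 library per group no difference between 2 libraries has a replicate check. The table pairs regions with neither genes nor coordinates, so the sorted cell types could not be checked against marker genes, and regions are known by running number only. In bulk samples a larger share of cells with an open region and a more open region per cell cannot be told apart.

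Depth differed with stage. Values were whole multiples of the value of 1 read, from which 3418164 reads were recovered in the regions of the ER- luminal pregnancy library, 2186941 in basal pregnancy and 2641254 in ER+ luminal pregnancy. The 6 libraries of puberty and adulthood held 6679907 to 11328189 reads. The ER+ luminal pregnancy library stood apart from its own cell type. Across all regions, which are not independent, its Pearson r was 0.708 and 0.699 with ER+ luminal puberty and adult. With ER- luminal cells it was 0.744 at puberty, 0.732 in adults and 0.768 in pregnancy. With basal cells it was 0.718, 0.676 and 0.695 at the same stages.

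The 446 regions were low in most libraries and highest, by choice, in 1. Their values in ER- luminal pregnancy ran from 21.2 to 211, with a median of 40.2. In adult ER- luminal cells the median was 13.4, and at puberty it was 7.89. In the other pregnancy libraries the medians were 11 (basal) and 11.9 (ER+ luminal). Basal cells had medians of 5.94 at puberty and 4.74 in adults, and ER+ luminal cells had 2.1 and 2.57. The order from high to low was thus the peak library, adult ER- luminal cells, the other pregnancy libraries, and then the remaining earlier libraries, with ER+ luminal cells lowest.

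**Figure D1:**
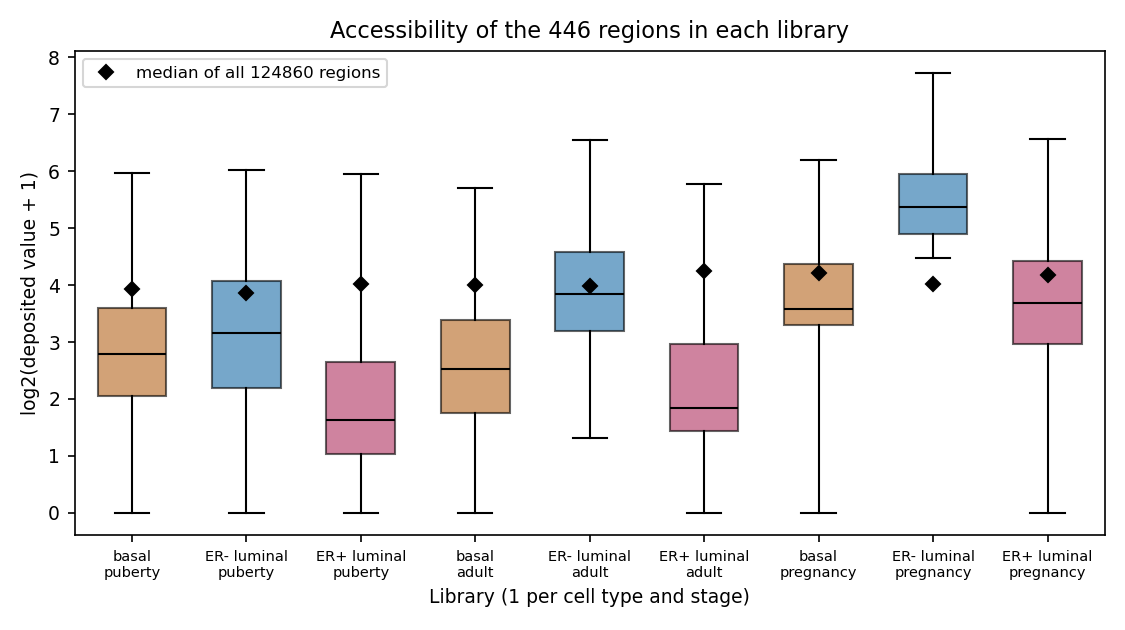
Boxes show log2(deposited value + 1) of the 446 regions in each of the 9 libraries, with the median, the quartiles and whiskers to the lowest and highest region; diamonds mark the median of all 124860 regions. The ER- luminal pregnancy box, which the choice of regions fixes, lies above the diamond, while the median in the other 8 libraries lies below it.

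Outside the peak library these were weak regions. The mean of the other 8 libraries had a median of 8.03, against 18.0 over all regions, and 378 of the 446 lay below the median region by this mean. They were weak but rarely empty: 115 had no read in at least 1 other library, and none had at most 3 reads in each of the other 8. A library without a read allows up to 3 reads, worth 1.58 to 6.60 units depending on the library. Adult ER- luminal cells had at least 1 read in each of the 446, while the ER+ luminal libraries had none in 49 regions at puberty and 42 in adults.

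The brightest member, merged58695, was highest in ER- luminal cells at both earlier stages and higher in pregnancy in both other cell types, as were 189 of the 446 (42.4%). Its value in ER- luminal cells was 60.2 at puberty, 90.6 in adults and 211 in pregnancy. In basal cells it was 15.0, 23.7 and 50.6 at the same stages, and in ER+ luminal cells 7.89, 6.84 and 49.2. ER- luminal cells were highest at each stage, and each cell type was highest in pregnancy. The 139 reads of the peak against 122 in adult ER- luminal cells gave a ratio of 2.33, with an exact 95% counting interval of 1.81 to 2.99. The region was picked for its high peak, so this interval is a description and covers counting error only.

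The member with the widest margin, merged28699, was a faint region. Its value was 25.8 in ER- luminal pregnancy, from 17 reads, and 4.40 in basal pregnancy, the second highest, from 2 reads. The ER- luminal values at puberty and in adults were 0.717 and 3.71. In ER+ luminal cells it had no read at puberty, 1.71 in adults and 3.39 in pregnancy, and basal cells had 2.37 and 0.789 before pregnancy. No library other than the peak stood out. Its log2 margin was 2.31, the ratio to basal pregnancy 5.86, and the counting interval of that ratio 1.39 to 52.3, so the width of the margin is poorly known.

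Margins were mostly modest. The median was 1.20 on the log2 scale, 112 of the 446 lay under 1.1, and 8 regions, or 1.79%, reached 2, a 4-fold difference. Those 8 had values of 25.8 to 75.8 and 17 to 50 reads in the peak library, and their counting limits lay between 1.39 and 2.57. The second highest library of these was ER- luminal adult in 3, basal pregnancy in 2, ER+ luminal pregnancy in 2 and basal adult in 1. The member nearest the threshold had 48.5 in the peak library and 23.7 in ER+ luminal pregnancy, a margin of 1.0021. A region with the same 48.5 and with 23.8 in adult ER- luminal cells, a margin of 0.9998, fell just outside, 1 of 188 regions at or above the floor with margins of 0.9 to 1. At the floor, 21 members had the lowest value, 21.2 from 14 reads, and 21 regions past the margin were left out at 19.7, from 13 reads.

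The same rule found regions in every library, and the ER- luminal pregnancy count was not among the highest. It gave 563 regions for basal pregnancy and 524 for ER+ luminal pregnancy. Adult ER+ luminal cells had 2438, adult basal cells 1309 and ER+ luminal puberty 1205. Fewer were found for basal puberty (136), ER- luminal puberty (208) and adult ER- luminal cells (136). ER- luminal cells thus had more such regions in pregnancy than at either earlier stage, while ER+ luminal and basal adult cells had more than their pregnancy libraries. Of the regions with a value of at least 20 in the library concerned, 0.883% met the rule in ER- luminal pregnancy, against 1.05% (basal pregnancy) and 0.942% (ER+ luminal pregnancy). These counts come from single libraries of unlike depth and were not tested against each other.

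**Figure D2:**
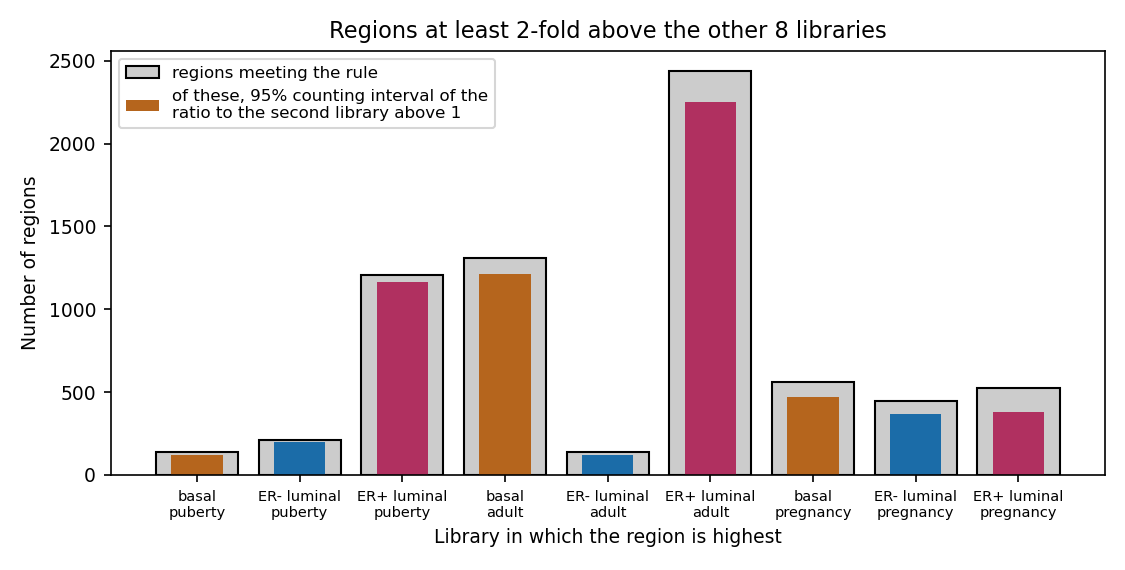
Grey bars give the number of regions that lie at least 2-fold above the other 8 libraries, for each library as the highest; the narrower bars, coloured by cell type, give those whose 95% counting interval against the second highest library lies above 1. ER- luminal pregnancy has 446 and 365, between the 136 regions of adult ER- luminal cells and the 2438 of adult ER+ luminal cells.

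Read noise was measured for each member as the exact (Clopper-Pearson) 95% interval of the ratio of its reads in the peak library to those in the second highest, scaled by the value of 1 read. The interval lay above 1 in 365 of the 446 regions, or 81.8%. In the basal pregnancy set this share was 83.5%, and in the ER+ luminal pregnancy set 72.9%. At 99% the share was 55.8% in the ER- luminal set, against 49.9% and 38.0%. Only 7 of the 446 had an interval above 2, the fold the rule asked for: their values were 28.8 to 159, and in 6 of them adult ER- luminal cells were second. The peak library was picked as the highest of 9, and the intervals were not widened for that choice.

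Fewest members passed against the shallow pregnancy libraries. Against adult ER- luminal cells, with 7375760 reads, the interval lay above 1 in 442 of the 446 regions. Against basal pregnancy, the shallowest library, it did so in 357, and against ER+ luminal pregnancy in 406. Against the other 5 earlier libraries at least 445 members passed. The intervals against each of the other 8 libraries all lay above 1 in 340 of the 446 (76.2%). The median member had 26.5 reads in the peak library, 5 in basal pregnancy, 7 in ER+ luminal pregnancy and 18 in adult ER- luminal cells.

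**Figure D3:**
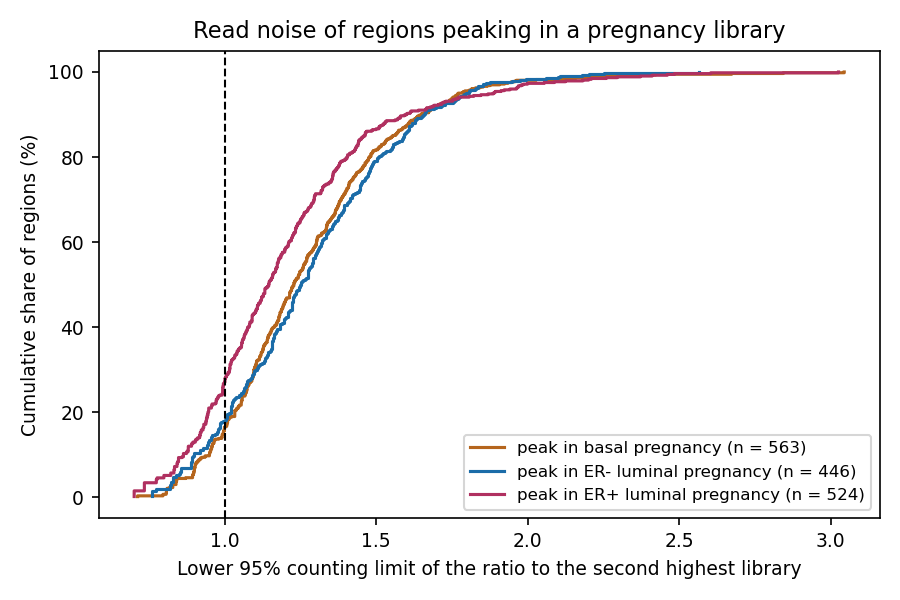
Each line gives the cumulative share of regions against the lower 95% counting limit of the ratio to the second highest library, for the sets that peak in basal, ER- luminal and ER+ luminal pregnancy. Left of the dashed line at 1 lie the regions whose peak is within counting error of the second library: all but 81.8% in the ER- luminal set and all but 72.9% in the ER+ luminal set.

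The second highest library split the members into a pair of groups of nearly the same size. In 205 regions (46.0%) it was an earlier ER- luminal library, adult in 174 and puberty in 31. In 212 (47.5%) it was another pregnancy library, basal in 114 and ER+ luminal in 98. The other 29 had an earlier basal or ER+ luminal library second. Among the 10 brightest members, with values of 135 to 211, adult ER- luminal cells were second in 8 and ER+ luminal pregnancy in 2. Among the 34 at or above 100 adult ER- luminal cells were second in 19.

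Before pregnancy the groups differed in their ER- luminal level, which the split by second library favours by itself. The medians are therefore a description. Where an earlier ER- luminal library was second, the medians were 10.8 at puberty, 17.1 in adults and 41.0 in pregnancy in ER- luminal cells, with 13.2 and 10.2 in the basal and ER+ luminal pregnancy libraries. Where a pregnancy library was second, ER- luminal cells had 5.73, 10.4 and 38.7, and the same pregnancy libraries had 13.2 and 11.9. The margins were alike, with medians of 1.18 and 1.21. The counting interval lay above 1 in 98.0% of the first group and 64.2% of the second, whose second libraries were the shallow ones.

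**Figure D4:**
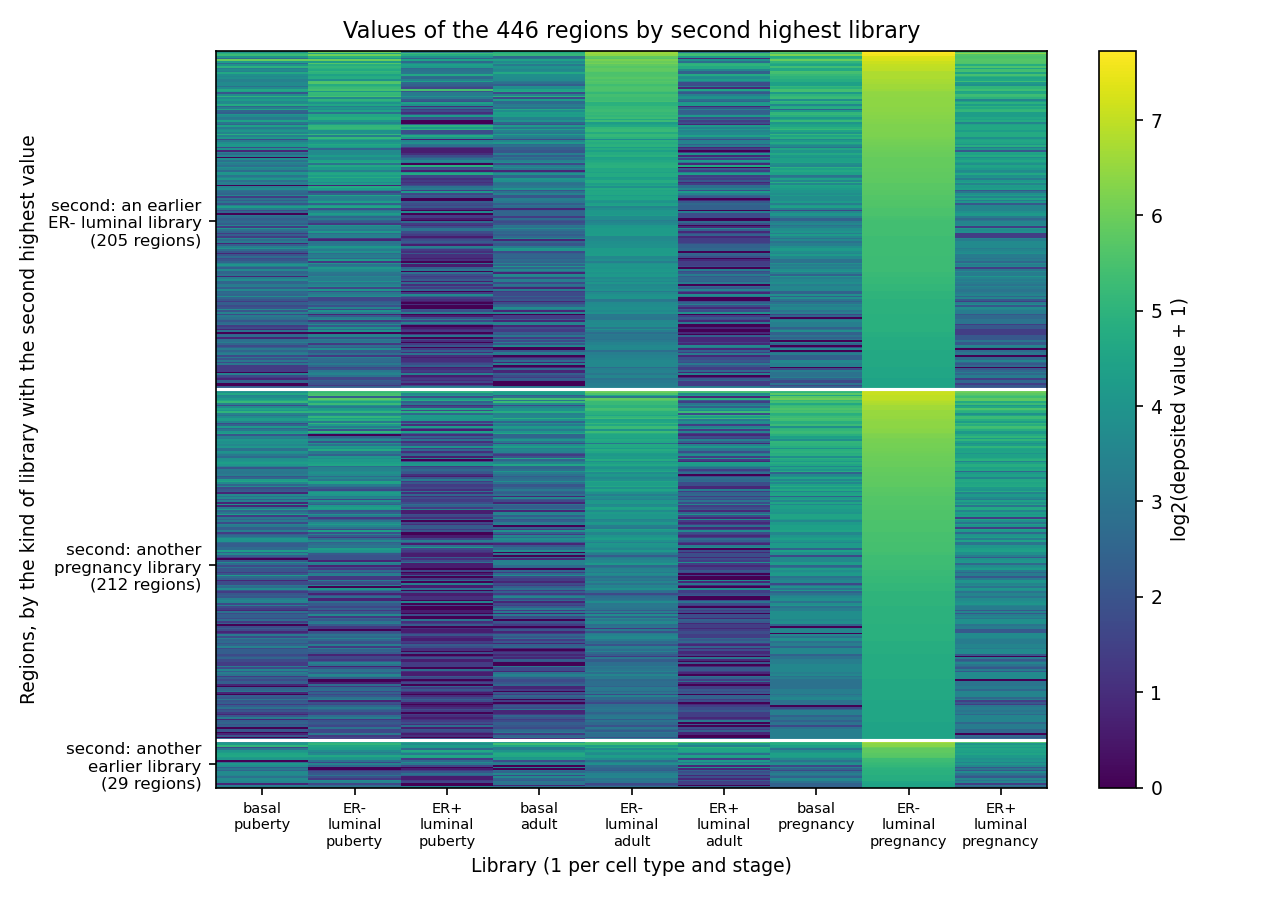
Each row is 1 of the 446 regions and each column a library, coloured by log2(deposited value + 1); rows are grouped by the kind of library that was second highest and ordered by the peak value. The adult ER- luminal column is brighter in the upper group of 205, which the grouping by itself favours. The ER+ luminal puberty and adult columns are the darkest in the groups of 205 and 212. The ER- luminal pregnancy column is the brightest by choice.

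Regions at the edges of these groups show the range of shapes. The brightest member with basal pregnancy second reached 126 in the peak library, 50.6 in basal pregnancy and 39.0 in ER+ luminal pregnancy. At puberty its values were 4.30 (ER- luminal), 11.9 (basal) and 2.63 (ER+ luminal), and in adults 7.43, 6.31 and 0.855. The 3 pregnancy values lay above all 6 earlier ones, and before pregnancy basal cells led at puberty and ER- luminal cells, narrowly, in adults. The brightest member with ER- luminal puberty second was a region of the cell type instead: it had 48.0, 47.5 and 102 in ER- luminal cells over the 3 stages and at most 19.8 in any other library. A region open everywhere also passed, with 191 in the peak library, 93.2 in ER+ luminal pregnancy and 51.3 to 76.5 in the other 7.

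Most of the regions already favoured ER- luminal cells in adults. Adult ER- luminal cells were above both adult basal and adult ER+ luminal cells in 400 of the 446 (89.7%), where all regions had 25.8%. At puberty ER- luminal cells were highest in 264 (59.2%, against 28.1%). They were highest at both earlier stages in 250 (56.1%, against 16.8%) and lowest at both in 3. Both earlier ER- luminal libraries lay above all 4 earlier libraries of the other cell types in 214 members, where 13.2% of all regions did, and below them in 1, where 9.82% did. The rule used the 8 other libraries as ceilings. Its margin over the basal and ER+ luminal pregnancy libraries chose regions that favoured ER- luminal cells in pregnancy. The part of that margin in the earlier orders was not tested. The floor of the rule lay in ER- luminal pregnancy alone and by itself favoured ER- luminal cells. Of the 50531 regions at or above that floor, 36.4% had ER- luminal cells highest in adults, 41.4% at puberty and 25.7% at both. The members' shares of 89.7%, 59.2% and 56.1% lay above these as well. All these orders were read from the libraries that chose the regions and are a description. With each library thinned to the depth of the shallowest, ER- luminal cells were highest at both earlier stages in 162 members rather than 250, and in 14.0% of all regions.

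ER- luminal accessibility at these regions was also higher in adults than at puberty. The adult value exceeded the pubertal one in 373 of the 446 (83.6%, against 50.5% of all regions), with a median log2 difference of 0.68. Of all 35053 regions whose mean over the 6 earlier libraries lay between the members' quartiles, 60.8% had a higher adult value, with a median of 0.23, against 79.3% and 0.67 for the members among them. In basal cells the same difference was -0.15, with the adult library higher in 167 and lower in 277. In ER+ luminal cells it was 0.28. Over all regions these medians were 0.01, 0.03 and 0.03.

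The other cell types also had higher values at these regions in pregnancy. Basal pregnancy exceeded both earlier basal libraries in 349 members (78.3%, against 37.9% of all regions), and ER+ luminal pregnancy exceeded both of its own in 381 (85.4%, against 38.9%). Both did in 305 (68.4%, against 17.7%), and neither did in 21. From adult to pregnancy the median log2 difference was 1.16 for basal cells and 1.42 for ER+ luminal cells, beside 1.49 for the ER- luminal cells that defined the set. Both pregnancy libraries lay above all 4 earlier libraries of their cell types in 257 members, where 8.46% of all regions did, and below them in 2, where 9.58% did.

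Regions chosen only for a low earlier level also had higher values in the pregnancy libraries. The members' mean over the 6 earlier libraries had a median of 6.82 and quartiles of 4.15 and 11.1. All 35053 regions between those quartiles had median log2 differences from adult to pregnancy of 0.41 (basal), 0.30 (ER+ luminal) and 0.32 (ER- luminal). The 222 members in the same band had 1.11, 1.51 and 1.49. Both other cell types were above their earlier libraries in 25.6% of the regions in the band and 66.7% of the members in it, and ER- luminal cells were highest at both earlier stages in 16.7% and 59.0%. The band was set by low values in earlier libraries, adult among them, which by itself can favour a rise from adult to pregnancy. The parts of this choice, of depth and of background signal in these differences were not tested.

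**Figure D5:**
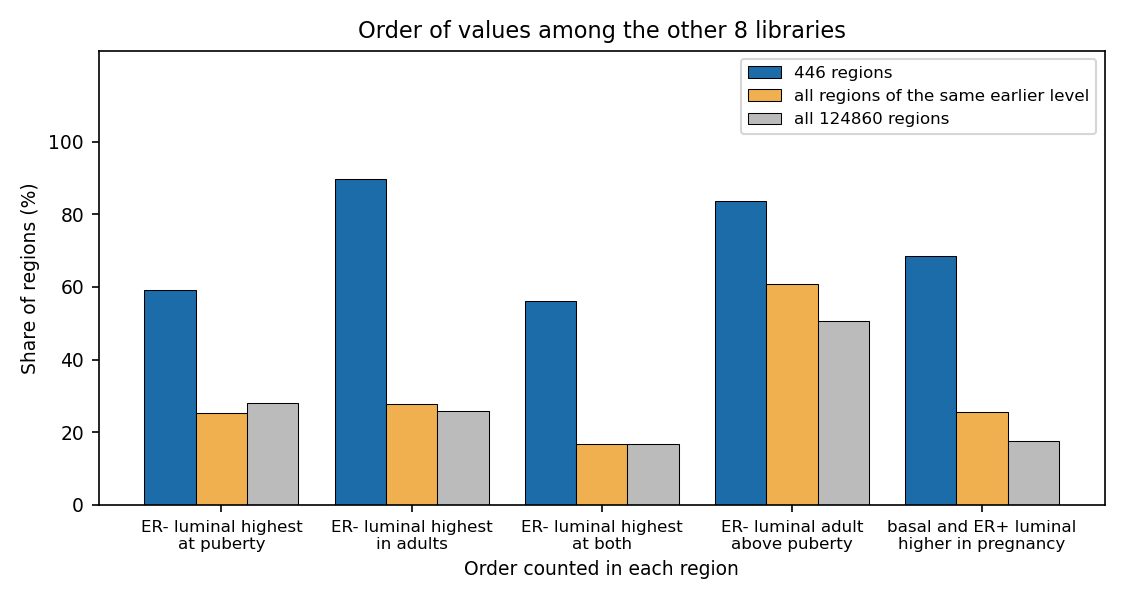
Bars give the share of regions with each order of values, for the 446 regions, for all 35053 regions whose mean over the 6 earlier libraries lies between the members' quartiles (same earlier level), and for all 124860 regions. The 446 regions have the highest share in each comparison, such as 89.7% against 25.8% of all regions for ER- luminal cells highest in adults; these are descriptions with no test.

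The cell type order and the pregnancy order were often found in the same region. Among the 446, 189 (42.4%) had ER- luminal cells highest at both earlier stages and both other cell types higher in pregnancy, where 7.19% of all regions had both. The first order alone was seen in 61, the second alone in 116, and neither in 80. The 189 were the brightest, with medians of 12.2, 16.3 and 48.5 in ER- luminal cells at puberty, in adults and in pregnancy. The 116 with the pregnancy order alone began lower, at 3.58 and 9.66, and had 38.7 in pregnancy. The 80 with neither order had 6.09, 10.8 and 34.1, and basal cells above ER- luminal cells at puberty, with a median of 8.31. Lack of the cell type order, which defines the 116 and the 80, by itself favours lower earlier ER- luminal values.

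Members whose peak exceeded counting error against the second highest library had the cell type order about as often as the rest. They had the pregnancy order in a smaller share. In the 365 with an interval above 1, ER- luminal cells were highest at both earlier stages in 56.2%, and in the other 81 in 55.6%. Both other cell types were higher in pregnancy in 65.5% of the 365 and 81.5% of the 81. Of the 223 members at or above 40, 63.2% and 75.8% had these orders, against 48.9% and 61.0% of the 223 below. The split by interval is tied to the second library. The interval lay above 1 in 64.2% of members with another pregnancy library second and in 98% with an earlier ER- luminal library second. The part of depth in the split was not tested.

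The sets that peak in the other pregnancy libraries shared some of these orders and not others. Both other cell types were above their earlier libraries in pregnancy in 56.8% of the basal set and 47.1% of the ER+ luminal set, where 19.4% and 19.2% of all regions were, against 68.4% in the ER- luminal set. The adult value of the own cell type exceeded the pubertal one in 81.1% of the ER+ luminal set (51.5% of all regions). It did so in 49.2% of the basal set (50.8% of all regions), against 83.6% in the ER- luminal set (50.5%). In the basal pregnancy set an earlier library of the same cell type was second in 393 of 563 (69.8%), and in the ER+ luminal pregnancy set in 176 of 524 (33.6%), against 46.0% in the ER- luminal set. Their own cell type was highest at both earlier stages in 74.4% of the basal set, where 24.7% of all regions had that order. In the ER+ luminal set it was 27.3%, below the 31.4% of all regions. The ER- luminal set had 56.1%, against 16.8% of all regions. ER- luminal pregnancy was the commonest second library in the ER+ luminal set, in 156 regions. The differences between the sets were not tested.

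A model without the peak library asked which of these differences exceeded the spread among libraries. It was fitted with limma to log2(value + 1) of the 8 other libraries over all regions, with additive effects of cell type and stage, and a region was called where its p, adjusted by Benjamini-Hochberg over all regions, was under 0.05. There are no replicates, so the error term measures how far single libraries stray from additivity and not the spread between animals. These 8 libraries also served the rule as ceilings, so the members' counts are read beside the share of all regions called. No member was called lower in any of the 3 comparisons by limma, edgeR or DESeq2, where limma called 5.27% (against basal cells), 12.7% (against ER+ luminal cells) and 2.76% (pregnancy) of all regions lower. At an unadjusted p under 0.05 limma gave 0 members lower, and 13.1%, 19.5% and 12.6% of all regions.

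ER- luminal cells were set first against ER+ luminal cells. The median log2 difference over the members was 1.38, against 0.02 over all regions, and was above 0 in 422 of the 446. Limma called 124 members higher (27.8%), where 11.2% of all regions were called higher. For merged58695 the log2 difference was 2.96 (SE 0.52, limma adjusted p = 0.000831), and for merged28699 it was 0.74 (SE 0.95, limma adjusted p = 0.623). This excess over all regions rested on the earlier luminal libraries. Without ER- luminal puberty 9 members were called (2.02%, against 2.25% of all regions), and without ER+ luminal puberty 26 (5.83%, against 5.45%). Without ER- luminal adult 0 were called (0.276% of all regions), and without ER+ luminal adult 17 (3.81%, against 4.43%). In these 4 fits the members' share was near or below that of all regions. Without either the basal or the ER+ luminal pregnancy library, the shares of members and of all regions called both rose. Each of these fits held a single pregnancy library.

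Against basal cells the members' lead was smaller. The median log2 difference was 0.96, against -0.07 over all regions, and 395 of the 446 lay above 0. Limma called 19 higher (4.26%), close to the 4.10% of all regions called higher. The brightest member, merged58695, was among the 19 with a log2 difference of 2.11 (SE 0.52, limma adjusted p = 0.0154). The count was 3 without basal puberty (0.673%, against 0.994% of all regions), 2 without basal adult (0.448%, against 1.01%) and 0 without ER- luminal puberty or ER- luminal adult (0.0016% and 0.0761% of all regions). It was 49 without basal pregnancy (11%, against 9.15%) and 50 without ER+ luminal pregnancy (11.2%, against 9.13%), so that calls rose over all regions as well. The count was also 33 by edgeR on the recovered reads (7.4%, against 5.34% of all regions). It was 34 with a pseudocount of 4 (7.62%, against 5.23%) and 31 after quantile normalization (6.95%, against 5.05%). With a pseudocount of 0.25 it was 10 (2.24%, against 3.01%), and without a variance trend 0 (0% of all regions).

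Pregnancy was set against the mean of the earlier stages, which in this model rests on the pregnancy libraries of basal and ER+ luminal cells. The median log2 difference over the members was 1.39, against 0.02 over all regions, with 425 of the 446 above 0. Limma called 32 higher (7.17%), where 0.968% of all regions were called higher. For merged58695 the difference was 1.98 (SE 0.47, limma adjusted p = 0.0288) and for merged28699 1.28 (SE 0.86, limma adjusted p = 0.403). The count was 0 without basal adult, 1 without ER+ luminal puberty, 2 without ER+ luminal adult, 3 without ER- luminal adult and 4 without ER- luminal puberty, where 0.0288% to 0.138% of all regions were called. Without ER+ luminal pregnancy it was 2 (0.448%, against 0.335% of all regions). It was 55 without basal puberty (12.3%, against 1.84%) and 107 without basal pregnancy (24.0%, against 8.78%). EdgeR called 8 (1.79%, against 0.368% of all regions) and DESeq2 9 (2.02%, against 0.899%). Limma after quantile normalization called 16 (3.59%, against 1.09%). A pseudocount of 0.25 gave 6 (1.35%, against 0.301%) and one of 4 gave 50 (11.2%, against 1.47%). None was called without a variance trend (0.00721% of all regions), so the number rests on the model.

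Single libraries also set how many regions met the rule. Without adult ER- luminal cells among the libraries to exceed, 1067 regions met it in place of 446. Without basal pregnancy there were 656, without ER+ luminal pregnancy 635, and without any 1 of the other 5 libraries 460 to 494. Adult ER- luminal cells were thus the library that held back the most regions. Quantile normalization gave 736 regions, of which 431 were among the 446, and equal depth gave 632, of which 291 were.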

How the data were processed

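ATAC-seq of 9 libraries of sorted mouse mammary cells was analysed, 1 per cell type and stage. The labels give the molecule as RNA, while their protocols describe Tn5 tagging of nuclei. Per the submitters' processing notes, the tools were MACS2 2.1.0.20151222, Bowtie2 2.2.6, Picard and SAMtools, with build GRCm38 (mm10). For read shifting, peak merging and scaling, the sources used here give no details. Each signal value was deposited by the authors as 1 number per library for each of 124860 regions. Every value (100%) lay within 0.02 reads of a multiple of that library's step, 0.526 to 2.20 units, so reads were recovered and the signal was read as counts divided by a size factor.

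Members were found by the rule with Python 3.11.15; the members and comparisons were chosen with earlier results of these data known. Limma 3.58.1 in R 4.3.3, with a trend in the prior variance and no filter, was fitted to log2(value + 1) in 8 libraries with 3 residual degrees of freedom. Alternatives were edgeR 4.0.16 and DESeq2 1.42.0 on recovered reads, other pseudocounts (0.25, 4), thresholds and scalings, and leaving out single libraries. The intervals against each of 8 libraries and the rescaled orders among libraries were added after seeing the data. Fits were tested on simulated data. Regions named by number are the brightest member and the one with the widest margin; other examples are the brightest member for a given second library and those nearest the thresholds. Planned marker genes and sequences were not used, since regions carry no gene or coordinate. Intervals and floors cover counting error only.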

Additional observations from a re-analysis of the deposited data

Results flagged for a closer look

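The change from puberty to adulthood had opposite signs in a pair of comparisons between cell types at the 446 regions. The members' median log2 difference, adult minus puberty, was 0.68 for ER- luminal cells and -0.15 for basal cells, which lie 0.83 apart. In ER+ luminal cells it was 0.28, which lies 0.43 above basal cells. Each median comes from 1 library per stage and the differences were not tested.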

How the results depend on the processing

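The number of regions meeting the rule, 446, became 223 with a floor of 40, 8 with a 4-fold margin and 736 after quantile normalization; without 1 of the other 8 libraries it was 460 to 1067. The pseudocounts, a lower or no floor, equal depth and TMM scaling kept it within 1.5 times. The 365 members beyond counting error of the second highest library became 7 with the interval above 2. The count stayed within 1.5 times at 99% (249) or against each of 8 libraries (340).

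Members called in the fit without the peak library were higher in every alternative that called any. For ER- luminal against basal cells the 19 became 10 and 34 with pseudocounts of 0.25 and 4, 31 after quantile normalization, 33 by edgeR, 0 without a variance trend and 66 in all 9 libraries, and 0 to 50 without 1 library. Against ER+ luminal cells the 124 became 200 in all 9 libraries and 0 to 182 without 1 library, while 0.276% to 18.2% of all regions were called; without any 1 of the 4 earlier luminal libraries the members' share was near or below that of all regions. For pregnancy against earlier stages the 32 became 6 and 50 with the pseudocounts, 16 after quantile normalization, 8 by edgeR, 9 by DESeq2, 0 without a variance trend, 173 in all 9 libraries and 0 to 107 without 1 library. Over the pseudocounts, quantile normalization and edgeR, 3.01% to 5.34% of all regions were called higher against basal cells. For pregnancy, with DESeq2 as well, 0.301% to 1.47% were. The fit of all 9 libraries contains the one that chose the members. It called 5.74% (against basal cells), 12.3% (against ER+ luminal cells) and 2.06% (pregnancy) of all regions higher. The cause of the other changes was not tested.

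ER- luminal cells were highest at both earlier stages in 250 members and in 162 at equal depth; the count of members with both other cell types higher in pregnancy, 305, was within 1.5 times under each scaling. With 1 library per group there were no replicate numbers to block on; the fit itself compares cell types within stages and stages within cell types. Depth limits the comparison with the other pregnancy libraries.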
